A study of Mus musculus with 16 samples.

Results

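The 10 genes described here encode 4 annexins (Anxa1, Anxa2, Anxa3 and Anxa5) and 6 S100 proteins (S100a4, S100a6, S100a8, S100a9, S100a10 and S100a11). They were taken by gene symbol from a deposited mouse liver expression table of 16793 genes, and all 10 were found in it. RNA-seq of polyA RNA was run on 16 liver libraries from wild-type mice carrying an induced primary liver cancer. The first experiment set females without ovaries (OVX) against females after sham surgery (Sham). The second set mice made to overexpress LCAT, the plasma enzyme that esterifies cholesterol in lipoproteins (LCAT), against mice given an empty vector (Vec). Each of the 4 groups had 4 libraries, numbered 1 to 4. All 4 groups shared the wild-type genotype, the liver as tissue and the induced cancer. The strain, age, cancer model, vector, promoter, the sex of the mice in the vector experiment, and whether tumour or surrounding liver was taken are not stated in the labels. The labels do not say either that libraries of 1 group came from separate mice, and each p-value therefore reflects only how far these libraries spread, which may be technical.

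Annexins are cytosolic proteins that bind acidic phospholipids of membranes when calcium is present. S100 proteins are small calcium sensors that work as dimers, and several bind the N-terminal tail of a particular annexin: S100A10 binds annexin A2, and S100A11 binds annexin A1. Some leave the cell, S100A8 and S100A9 as the neutrophil heterodimer calprotectin, which signals through TLR4 and the receptor RAGE. Healthy hepatocytes express most of these genes weakly, while bile duct, mesenchymal, mesothelial and myeloid cells are known for higher levels.

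Values are the authors' normalised read counts, that is, reads per gene divided by 1 size factor per library. Whole reads could be recovered from them in every library, with 100% of values whole within 0.01 read. The recovered totals were 17782178 to 27110501 reads in OVX libraries and 21428827 to 25850761 in Sham libraries. They were 12562943 to 19248762 in LCAT libraries and 14412808 to 20659336 in Vec libraries. Hepatocyte markers such as Alb, Apoa1 and Ahsg were abundant in all 16 libraries. Lcat itself averaged 4931 ± 270 in LCAT libraries and 3444 ± 742 in Vec libraries (SD, n = 4 each; log2 fold change 0.54, limma adjusted p = 0.0168). Its mean was 5662 ± 61.9 in Sham libraries and 3389 ± 241 in OVX libraries (log2 fold change -0.74, limma adjusted p = 0.000167). Lcat thus changed in both experiments, in opposite directions, and its LCAT mean lay under its Sham mean. Among genes that differed at least 2-fold between libraries 1 and 4 of a group, libraries 2 and 3 mostly lay between them. Placed on a line from library 4 (at 0) to library 1 (at 1), library 2 had a median position of 0.766 in OVX, 0.656 in Sham and 0.426 in LCAT. For library 3 that position was 0.619 in OVX, 0.456 in Sham and 0.385 in LCAT. In Vec, 188 genes differed so, with quartiles of 0.077 and 0.964 for library 2. Its quartiles were 0.674 and 0.840 in OVX, 0.566 and 0.747 in Sham, and 0.317 and 0.577 in LCAT. Library 2 lay between libraries 1 and 4 in 89.5% of such genes in OVX, 92.6% in Sham, 93.6% in LCAT and 65.4% in Vec. Whether libraries 2 and 3 are independent of libraries 1 and 4 was not tested, and results are also given with the end libraries alone, that is, libraries 1 and 4 of OVX, Sham and LCAT with all 4 Vec libraries.

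In the mm10 annotation (GENCODE M21) all 6 S100 genes lay on chromosome 3, between 90603771 and 93564643. S100a8 (chr3:90668978-90670035, plus strand) and S100a9 (chr3:90692632-90695721, minus strand) lay close together, as did S100a11 (chr3:93520488-93526287) and S100a10 (chr3:93555080-93564643), both on the plus strand. S100a4 (chr3:90603771-90606045) and S100a6 (chr3:90612882-90624181) were on the plus strand. The annexins were scattered: Anxa1 at chr19:20373428-20390944 and Anxa5 at chr3:36448923-36475894, both on the minus strand, Anxa2 at chr9:69453620-69491795 and Anxa3 at chr5:96793339-96845966, both on the plus strand. S100a4 overlaps the annotated S100a3, and no source used here gives the strand setting of the counting. S100a3 stayed at or below 2.52 in every library.

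The promoters below are shown because S100a8, S100a9 and Anxa2 changed differently in the experiments, and because S100a11 holds the same AP-1 letters as Anxa2. Each runs 5′ to 3′ from 250 bases before to 50 bases after the RefSeq start (GRCm38.p6). They are S100a8 (chr3:90668821-90669120, plus), S100a9 (chr3:90695672-90695971, minus), Anxa2 (chr9:69453433-69453732, plus) and S100a11 (chr3:93520246-93520545, plus). Capitals mark the TATA box letters TATAAA and the AP-1 letters TGANTCA.
S100a8: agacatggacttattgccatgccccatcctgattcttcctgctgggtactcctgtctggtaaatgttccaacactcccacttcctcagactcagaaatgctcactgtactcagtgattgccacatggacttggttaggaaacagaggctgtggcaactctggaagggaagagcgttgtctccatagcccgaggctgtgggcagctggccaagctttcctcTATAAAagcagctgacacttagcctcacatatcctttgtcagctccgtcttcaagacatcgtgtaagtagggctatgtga
S100a9: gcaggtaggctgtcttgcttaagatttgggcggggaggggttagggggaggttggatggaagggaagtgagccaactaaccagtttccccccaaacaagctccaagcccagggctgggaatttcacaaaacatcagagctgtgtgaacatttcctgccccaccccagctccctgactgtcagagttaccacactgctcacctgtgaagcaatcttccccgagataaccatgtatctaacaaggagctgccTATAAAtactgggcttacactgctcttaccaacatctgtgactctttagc
Anxa2: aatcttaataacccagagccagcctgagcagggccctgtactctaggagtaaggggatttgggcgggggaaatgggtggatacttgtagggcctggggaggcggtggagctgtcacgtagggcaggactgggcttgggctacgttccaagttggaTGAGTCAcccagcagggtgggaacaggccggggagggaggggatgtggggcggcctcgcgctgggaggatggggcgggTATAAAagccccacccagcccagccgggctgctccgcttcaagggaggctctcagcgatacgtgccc
S100a11: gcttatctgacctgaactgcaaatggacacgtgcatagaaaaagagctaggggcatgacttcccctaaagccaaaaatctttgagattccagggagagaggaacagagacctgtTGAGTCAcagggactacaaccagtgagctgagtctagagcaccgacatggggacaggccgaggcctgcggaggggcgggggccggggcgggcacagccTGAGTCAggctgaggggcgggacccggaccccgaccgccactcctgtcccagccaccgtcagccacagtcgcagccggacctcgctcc
Promoters of 8 of the 10 genes were matched in the RefSeq table, all but Anxa3 and S100a10. TATAAA, searched on both strands, stood in 5 of the 8 (S100a4, S100a8, S100a9, Anxa1 and Anxa2) and in 13.6% of all 32851 mouse promoters of this length. From the start it began at -31 in S100a4, -30 in S100a8, -32 in Anxa1, -17 in Anxa2 and at position 1 in S100a9. TGANTCA, which reads the same on both strands, stood in S100a11, at positions -136 and -38 from the start, and in Anxa2, at -95, and in 7.81% of all promoters. The C/EBP letters TTNNGNAA stood on either strand in S100a8, S100a9 and Anxa1, and in 40.7% of all promoters. The searched letters do not overlap one another in the 4 windows shown. S100a6, whose change also differed between the experiments (limma adjusted p = 0.00813), is not shown, and its promoter held none of the searched letters. S100a11, which is shown, missed that threshold (limma adjusted p = 0.0701). A match is a description of the letters and not of a bound site.

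Set per kilobase of the annotated principal transcript, the genes formed a high and a low tier in all 4 groups. Anxa2, Anxa5, S100a10 and S100a11 made up the high tier, from 2550.4 ± 81.3 per kb for Anxa2 in Sham to 5755 ± 121 per kb for Anxa2 in Vec (mean ± SD, n = 4 each). The low tier reached 584 ± 25.3 per kb, for S100a6 in Vec. S100a10, the annexin A2 ligand, ranked first in OVX (4628 ± 827 per kb), Sham (4613 ± 587) and LCAT (5653 ± 2911), and Anxa2 ranked first in Vec. In OVX and in LCAT the ranges of neighbours overlapped throughout the high tier, and in Sham the range of S100a10 overlapped that of Anxa5. S100a4 ranked last in OVX (72.0 ± 6.69 per kb) and in Sham (23.0 ± 12.1 per kb). S100a8 ranked last in LCAT (54.8 ± 20.1 per kb) and in Vec (7.59 ± 9.72 per kb), where its range overlapped that of the next gene, S100a4 in LCAT and S100a9 in Vec.

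**Figure D1:**
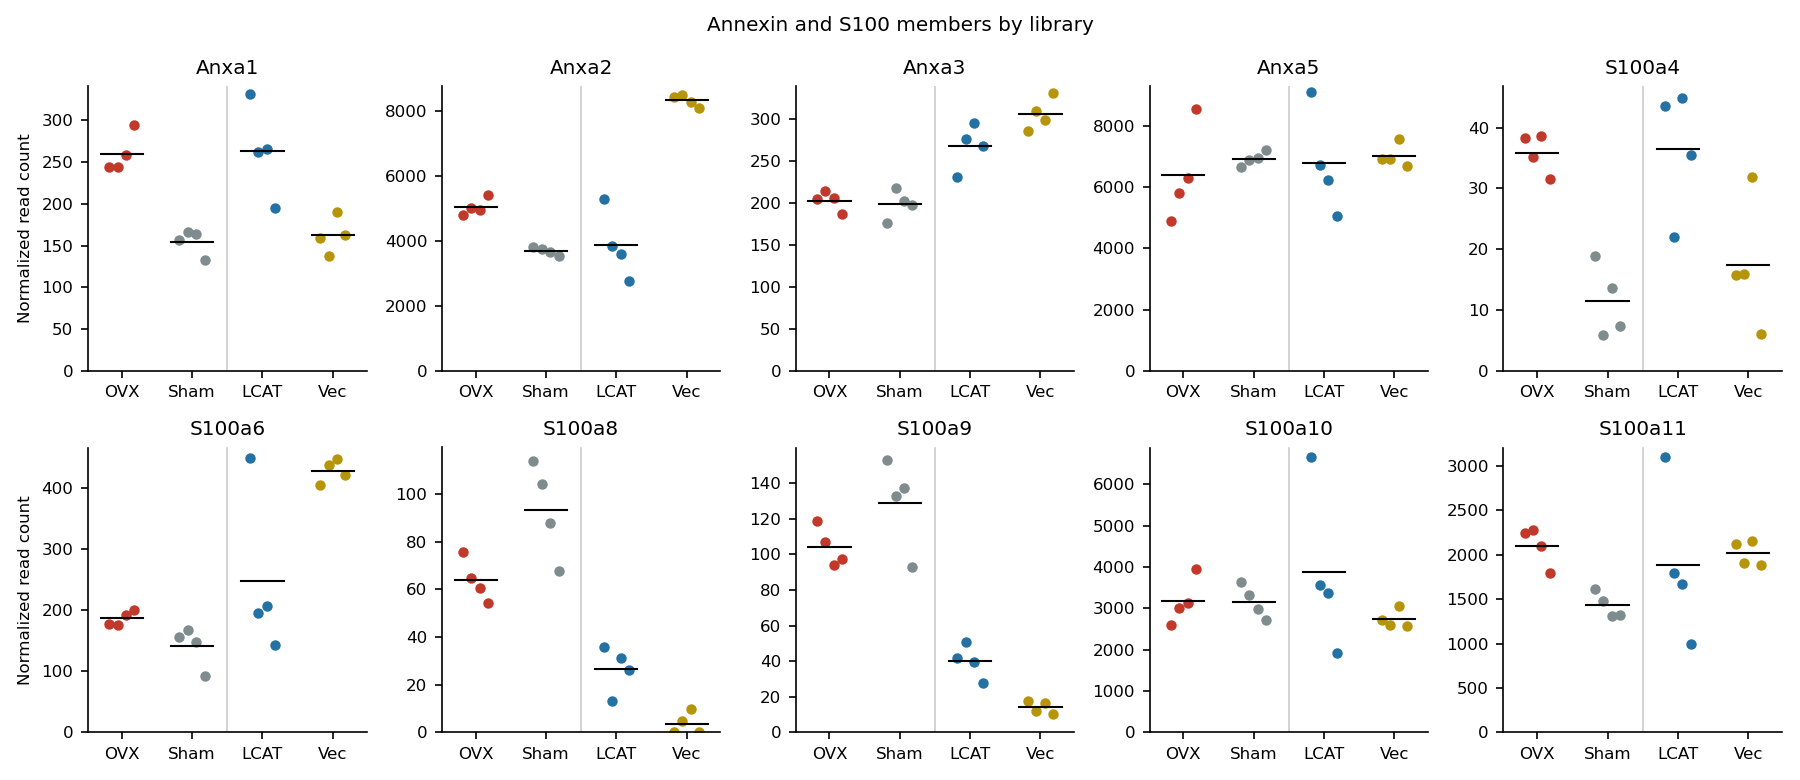
Normalised read counts of the 10 genes by library (y axis, linear from 0), in the order OVX, Sham, LCAT, Vec. Points are libraries and bars are group means of 4. Anxa2 is separate in both experiments, at 4815 to 5422 in OVX against 3539 to 3803 in Sham and at 2757 to 5295 in LCAT against 8102 to 8486 in Vec.

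The surgery experiment addressed what removal of the ovaries does to the cancer-bearing liver. Anxa1, Anxa2, S100a4 and S100a11 rose in OVX, by 0.45 to 1.69 on the log2 scale, and none of the other 6 passed. All 4 had OVX values above every Sham value. These 4 of 10 higher calls stand beside a background of 19% of all genes tested, the 0 lower calls beside 20.6%, and the 4 calls in either direction beside 39.6% (limma on log2(value + 1), adjusted p below 0.05). Over all genes, 2484 were higher and 2686 lower, and 4454 and 1208 with library totals set equal, where the 10 genes had 5 higher calls and 0 lower calls. At an unadjusted p below 0.05, 5 genes were higher and 1 was lower. edgeR called 4 higher and 0 lower, and DESeq2 4 higher and 1 lower. The median log2 fold change was 0.24 over the 10 genes and 0.0032 over all genes. In bulk tissue, more cells of a type and more RNA per cell cannot be told apart.

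Anxa1, the glucocorticoid-induced annexin that acts on formyl peptide receptors, read 244, 244, 259 and 295 in OVX libraries 1 to 4, against 157, 166, 164 and 132 in Sham libraries. The lowest OVX library exceeded the highest Sham library (log2 fold change 0.75, SE 0.11, limma adjusted p = 0.00152). Anxa2, the annexin that gathers plasminogen and its activator on the cell surface, read 4815, 5008, 4966 and 5422 in OVX libraries, against 3803, 3760.3, 3659.9 and 3539 in Sham libraries. Its groups were again separate, with a narrow spread in each (log2 fold change 0.45, SE 0.062, limma adjusted p = 0.00105).

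S100a4, also called fibroblast-specific protein 1 and a ligand of nonmuscle myosin, showed the largest rise of the 10 genes. It read 38.2, 35.1, 38.7 and 31.5 in OVX libraries, against 19.0, 5.88, 13.6 and 7.30 in Sham libraries, with no overlap (log2 fold change 1.69, SE 0.35, limma adjusted p = 0.00671). S100a11, the annexin A1 ligand, read 2247, 2273, 2101 and 1795 in OVX libraries, against 1619.6, 1479, 1312 and 1321 in Sham libraries. It too was separate (log2 fold change 0.55, SE 0.10, limma adjusted p = 0.00411), but missed the threshold when all 16 libraries shared 1 fit (adjusted p = 0.0723).

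S100a6, which encodes calcyclin, was separate without passing. It read 178, 175, 193 and 201 in OVX libraries, against 156, 167, 148 and 92.2 in Sham libraries (log2 fold change 0.44, SE 0.18, limma adjusted p = 0.0908). With library totals set equal it passed (0.68, adjusted p = 0.0138). Groups that did not overlap, with OVX above, were thus found in 5 of the 10 genes and in 18.9% of all genes. In either direction the share of all genes was 39%.

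The calprotectin genes were not called in either direction. S100a8 read 75.6, 64.8, 60.7 and 54.1 in OVX libraries, against 114, 104, 87.7 and 67.5 in Sham libraries, and only Sham library 4 lay within the OVX range (log2 fold change -0.52, SE 0.19, limma adjusted p = 0.0587). S100a9 read 118, 107, 94.1 and 97.4 in OVX libraries, against 153, 133, 137 and 93.1 in Sham libraries, and Sham library 4 was the lowest of all 8 (log2 fold change -0.29, SE 0.17, limma adjusted p = 0.202). Without Sham library 4 both passed as lower in OVX, S100a8 with a log2 fold change of -0.67 (adjusted p = 0.0114) and S100a9 with -0.43 (adjusted p = 0.0206). The ratio of S100a8 to S100a9 values averaged 0.612 ± 0.041 in OVX libraries and 0.724 ± 0.061 in Sham libraries (SD, n = 4 each).

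Anxa3, Anxa5 and S100a10 did not pass. For Anxa3, an annexin studied in human liver cancer, the log2 fold change was 0.034 with a 95% interval from -0.19 to 0.26. For Anxa5, the phosphatidylserine-binding annexin used to stain dying cells, values were 4876, 5818, 6289 and 8545 in OVX libraries, against 6668, 6873, 6951 and 7212 in Sham libraries. OVX library 4 lay above and the other OVX libraries below every Sham value, and without it Anxa5 was lower in OVX (log2 fold change -0.30, limma adjusted p = 0.0347). S100a10 had 2594, 3010.4, 3130.2 and 3947 in OVX libraries, against 3627, 3329, 2976 and 2707 in Sham libraries, fully overlapping. S100a10 values per Anxa2 value ranged between 0.539 and 0.728 in OVX libraries and 0.765 to 0.954 in Sham libraries, with no overlap. Anxa2 was itself separate between these groups, so the ratio is not an independent result.

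With libraries 1 and 4 alone, 2 against 2, no gene of the table passed limma at an adjusted p below 0.05, though 1688 did at an unadjusted p below 0.05. The sizes for the called genes were then 0.89 for Anxa1 (adjusted p = 0.295), 0.48 for Anxa2 (0.407), 1.47 for S100a4 (0.421) and 0.46 for S100a11 (0.456).

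The vector experiment set LCAT overexpression against the empty vector. Anxa1, S100a8 and S100a9 rose, Anxa2 and S100a6 fell, and 5 genes did not pass. The 3 higher calls of 10 stand beside 20.2% of all genes, and 1 of them, S100a8, had a mean below the minimum of 10 in Vec and so had to differ to be tested. The 2 lower calls stand beside 20.5%. The median log2 fold change was 0.14 over the 10 genes and 0.0045 over all genes. The 5 calls in either direction stand beside 40.7%. Over all genes, 2651 were higher and 2681 lower, and 1794 and 3969 with library totals set equal, where the 10 genes had 3 higher and 3 lower calls. Groups did not overlap for Anxa1, S100a8 and S100a9 above (20.2% of all genes) and for Anxa2 below (20.3%), together 4 of 10 beside 40.5%.

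Anxa2 had the lowest adjusted p of the 10 genes in LCAT. It read 5295, 3853, 3609 and 2757 in LCAT libraries, against 8447, 8486, 8277 and 8102 in Vec libraries. The highest LCAT library lay far under the lowest Vec library (log2 fold change -1.14, SE 0.18, limma adjusted p = 0.00149), and the call held with the end libraries alone (-1.12, adjusted p = 0.0317). S100a10, which encodes the partner of annexin A2, read 6650.3, 3568, 3361 and 1908 in LCAT libraries, against 2727, 2599, 3061 and 2582 in Vec libraries. LCAT library 4 was the lowest and the other LCAT libraries were above every Vec value (log2 fold change 0.36, SE 0.32, limma adjusted p = 0.387; without LCAT library 4, 0.65, adjusted p = 0.0423). S100a10 values per Anxa2 value were 0.692 to 1.26 in LCAT libraries and 0.306 to 0.370 in Vec libraries, with no overlap. Here too the ratio is not independent of the Anxa2 change.

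S100a6, or calcyclin, lay below Vec in 3 of the 4 LCAT libraries. It read 448, 195, 207 and 142 in LCAT libraries, against 404, 437, 446 and 420.2 in Vec libraries, so that LCAT library 1 lay above every Vec value. The fall passed (log2 fold change -0.92, SE 0.30, limma adjusted p = 0.0409) but did not hold throughout. It was lost without LCAT library 2, 3 or 4 or any 1 Vec library (adjusted p from 0.0614 to 0.0969), in edgeR (0.0794), and with the end libraries alone (-0.75, 0.24).

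Both calprotectin genes rose. S100a8 read 35.8, 13.2, 31.3 and 26.3 in LCAT libraries, against 0, 4.88, 9.87 and 0 in Vec libraries, where it rested on 13 recovered reads in all. Every LCAT library lay above every Vec library, and the means stood at 26.6 ± 9.76 in LCAT and 3.69 ± 4.72 in Vec (SD, n = 4 each; log2 fold change 3.20, SE 0.84, limma adjusted p = 0.0165). S100a8 passed the minimum mean of 10 only through its LCAT values, and its call was also made with no minimum (adjusted p = 0.0177). The size of its change depends on the scale, at 3.72 with a pseudocount of 0.5 and 1.96 with a pseudocount of 5, and the ratio of the means was 7.22. S100a9 read 42.0, 50.6, 39.7 and 27.8 in LCAT libraries, against 17.5, 12.2, 16.5 and 10.5 in Vec libraries, also separate (log2 fold change 1.43, SE 0.26, limma adjusted p = 0.00334). Both calls were lost with the end libraries alone, at 3.49 (adjusted p = 0.0864) for S100a8 and 1.24 (0.0574) for S100a9.

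Anxa1 rose here as well, at 331, 262, 266 and 195 in LCAT libraries, against 159, 138, 189.8 and 163 in Vec libraries. LCAT library 4 was only just above Vec library 3 (log2 fold change 0.68, SE 0.17, limma adjusted p = 0.0148), and with the end libraries alone the change was 0.65 (adjusted p = 0.119).

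S100a4 did not pass. It read 43.6, 22.0, 44.9 and 35.5 in LCAT libraries, against 15.8, 15.9, 31.8 and 6.12 in Vec libraries, and LCAT library 2 lay under Vec library 3 (log2 fold change 1.18, SE 0.46, limma adjusted p = 0.0699). Without Vec library 3 it passed (1.52, adjusted p = 0.027). S100a11, at 3102, 1789.5, 1671 and 995 in LCAT libraries and 2117, 1909.9, 2149 and 1880.1 in Vec libraries, spanned the Vec range on both sides (log2 fold change -0.21, SE 0.29, limma adjusted p = 0.592). Anxa5 (log2 fold change -0.081) and Anxa3 (-0.20) did not pass either. Anxa3 was lower and passed with library totals set equal (-0.38, adjusted p = 0.0357).

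**Figure D2:**
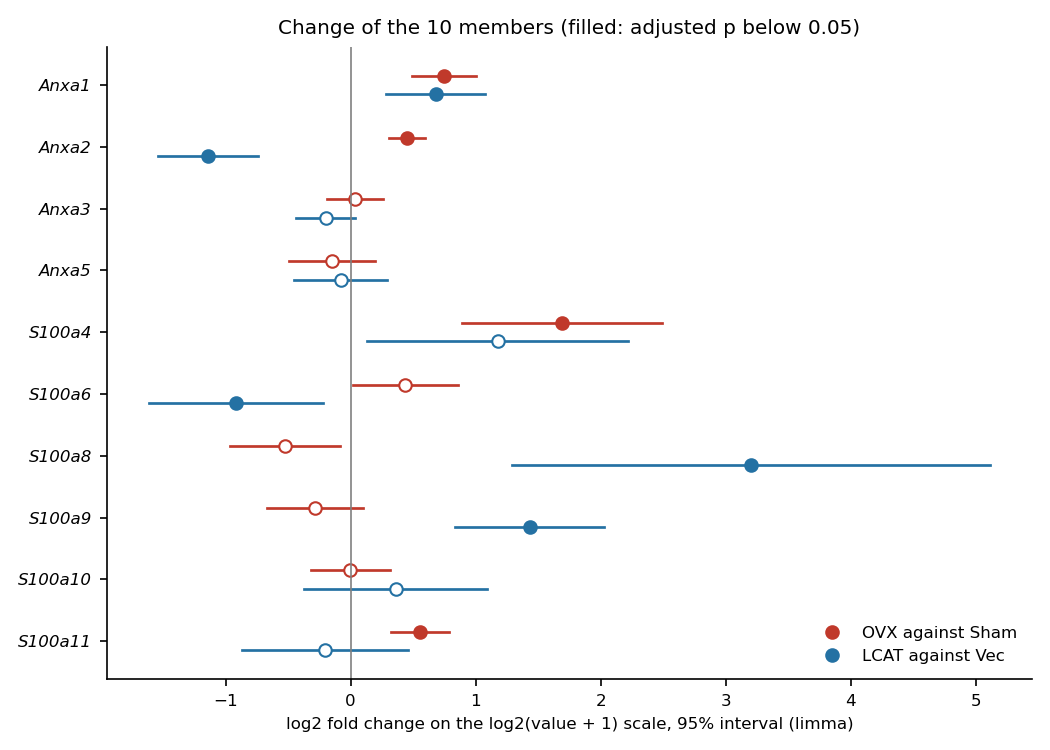
Log2 fold change of each gene (x axis) for OVX against Sham and for LCAT against Vec, with 95% intervals, and filled markers for a limma adjusted p below 0.05. Anxa1 is filled above 0 in both comparisons, while Anxa2 is at 0.45 for OVX and at -1.14 for LCAT.

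The experiments share no samples, so the difference of the changes, LCAT against Vec minus OVX against Sham, could be tested on all 16 libraries. It passed for 4 of the 10 genes, beside 44.8% of all genes. The LCAT change lay above the OVX change for S100a8 (difference 3.73 on the log2 scale, limma adjusted p = 0.00294) and S100a9 (1.72, adjusted p = 0.000346), beside 21.9% of all genes. It lay below for Anxa2 (-1.59, adjusted p = 1.22e-05) and S100a6 (-1.36, adjusted p = 0.00813), beside 22.9%. All 4 kept their calls in every alternative run for the difference where they were tested. The end libraries alone, edgeR and DESeq2 were not run for the difference. S100a8 was not tested at a minimum mean of 50. The Anxa1 difference was -0.065 with a 95% interval from -0.51 to 0.38, and with library totals set equal it was -0.49 (adjusted p = 0.0442). S100a11 missed the threshold (-0.76, adjusted p = 0.0701) and passed without LCAT library 1 (-1.04, adjusted p = 0.00165).

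The coefficient of variation within a group was highest in LCAT for 7 of the 10 genes and in Vec for the other 3. In LCAT it was 55.0% for S100a6, 51.5% for S100a10 and 46.6% for S100a11, against 4.33%, 8.10% and 6.88% for the same genes in Vec. The low-count genes varied more in Vec, with 36.6% in LCAT and 128% in Vec for S100a8 and 28.8% in LCAT and 61.2% in Vec for S100a4, while S100a9 had 23.5% in LCAT and 23.8% in Vec. LCAT library 1 exceeded LCAT library 4 in 9 of the 10 genes, by 1.80 on the log2 scale for S100a10, 1.65 for S100a6 and 1.64 for S100a11, while Anxa3 differed by -0.21. In OVX, library 1 was the higher of the end libraries in 5 genes, in Sham in 8 and in Vec in 6. Shares over all genes were not computed for these counts. Among all genes averaging at least 50 in a group, 2390 differed at least 2-fold between libraries 1 and 4 of LCAT. In Sham 1296 did so, in OVX 656 and in Vec 188, so a wide spread in LCAT was not particular to the 10 genes.

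**Figure D3:**
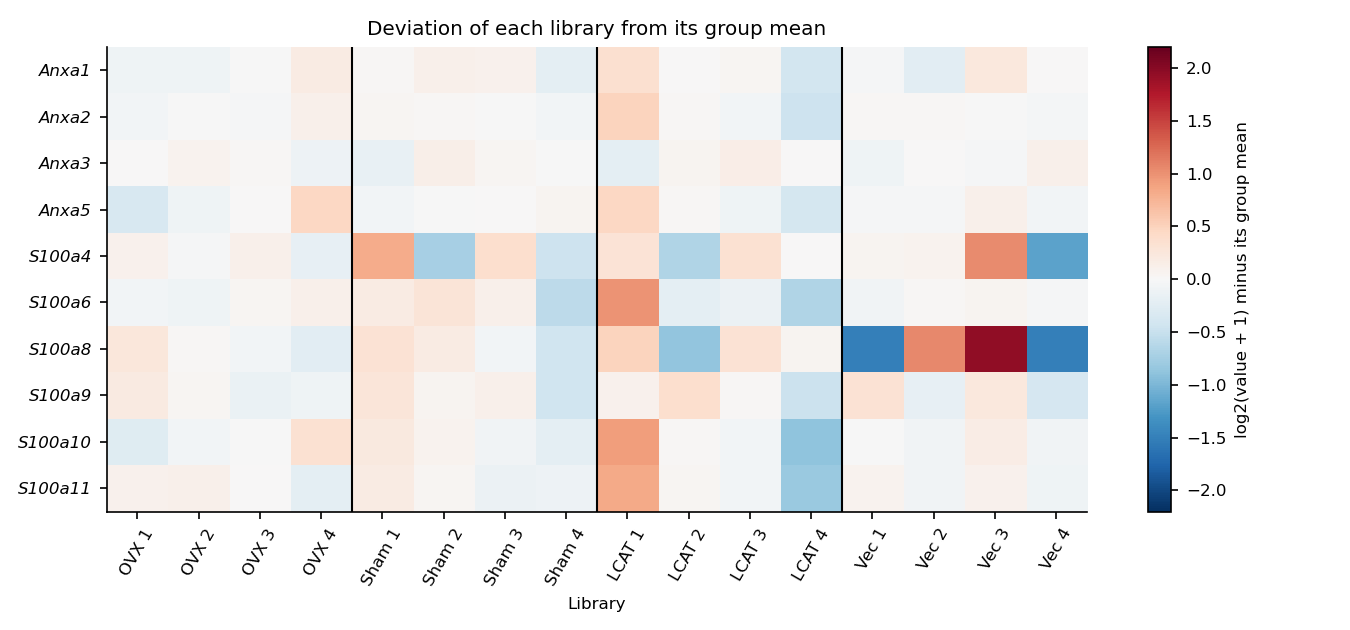
Heat map of log2(value + 1) minus its group mean for the 10 genes (rows) in the 16 libraries (columns), on a colour scale of -2.2 to 2.2. Among LCAT libraries, S100a6, S100a10 and S100a11 are highest in library 1 and lowest in library 4, and S100a8 has its widest spread in Vec, where 2 libraries are at 0.

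Ligands, receptors and other partners of these proteins were read from a list of 15 genes. In OVX, 4 rose and 2 fell of 15 tested (median log2 fold change 0.34). These 6 are 40.0% of the list, against the 39.6% of all genes called in either direction, so the share is that of the background, and with library totals set equal 8 were higher and 0 lower. Those that rose were Myh9, the myosin heavy chain bound by S100A4 (0.40, adjusted p = 0.00182), Plat, the plasminogen activator that annexin A2 assembles (0.35, adjusted p = 0.008), Tlr4, the calprotectin receptor (0.79, adjusted p = 0.00898), and Pla2g4a, the phospholipase inhibited by annexin A1 (1.61, adjusted p = 0.0289). Those that fell were Bsg (-0.39, adjusted p = 0.0343) and Nptn (-0.19, adjusted p = 0.0481), which encode receptors known from human cells for S100A9 and S100A8. The Plat call was lost when all 16 libraries shared 1 fit (adjusted p = 0.0997). The Nptn call was lost without any of 7 single libraries (adjusted p from 0.0701 to 0.12), that of Bsg without any of 5 (0.0505 to 0.0897) and that of Pla2g4a without any of 4 (0.064 to 0.075). With the end libraries alone none of the 6 passed.

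With LCAT overexpression, 6 of the 14 partners tested fell, beside 20.5% of all genes, and 2 rose, beside 20.2% (median log2 fold change -0.47). Plat, at 68.4, 78.1, 122 and 125 in LCAT libraries against 307, 326, 291 and 314 in Vec libraries, fell by 1.69 on the log2 scale (limma adjusted p = 0.000461). Plau, the urokinase gene (-1.59, adjusted p = 0.000809), and Plaur, its receptor gene (-1.64, adjusted p = 0.000602), fell with it. Plg, the plasminogen gene, did not pass (0.19, adjusted p = 0.068).

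Ahnak, the giant scaffold protein bound by the annexin A2 and S100A10 complex, read 557, 576, 508 and 630.5 in LCAT libraries, against 2034, 2492, 1745 and 2226 in Vec libraries, with wide separation (-1.89, limma adjusted p = 2.09e-05). Myh9 fell by 1.28 (adjusted p = 6.41e-05). These 5 calls held under all 19 alternatives. Bsg also fell (-0.76, adjusted p = 0.00653), but not with the end libraries alone (adjusted p = 0.0762). Cacybp, which encodes the calcyclin-binding protein (0.74, adjusted p = 0.00952), and Fpr1, a formyl peptide receptor for annexin A1 (1.66, adjusted p = 0.00136), rose, though Cacybp did not pass with the end libraries alone (adjusted p = 0.0747). The difference between the experiments passed for Plat (-2.04), Plau (-2.41), Plaur (-1.98), Ahnak (-2.10), Myh9 (-1.68), Tlr4 (-1.44) and Cacybp (0.92), with limma adjusted p-values up to 0.00227. These stand among the 15 genes listed, beside 44.8% of all genes that passed. Over all genes the LCAT change lay below the OVX change for 22.9% and above it for 21.9%.

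Of the other annexin genes, 6 of 8 were tested in OVX, with 1 higher, beside 19% of all genes, and 1 lower, beside 20.6% (median -0.10), or 3 higher and 0 lower with library totals set equal. Anxa9 rose (0.66, adjusted p = 0.0143), and Anxa11 was lower (-0.29, adjusted p = 0.0453), a call lost without any of 7 single libraries (adjusted p from 0.0776 to 0.119). With LCAT, 2 of 8 were higher, beside 20.2% of all genes, and 2 lower, beside 20.5% (median -0.083), or 1 higher and 3 lower with library totals set equal. Anxa8, an annexin of stratified epithelia, had the largest fall among the annexins. It read 15.6, 19.8, 14.6 and 17.0 in LCAT libraries, against 163, 199, 154 and 169 in Vec libraries, with no overlap (-3.28, limma adjusted p = 3.72e-06, held under all 19 alternatives).

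Anxa10 was at 0 in all OVX, Sham and Vec libraries and in LCAT library 1, and read 20.9, 40.7 and 35.5 in LCAT libraries 2 to 4. Against a floor of 3 reads over the Vec group it was at least 32.5-fold higher in LCAT. It passed the minimum mean only through LCAT, with a limma adjusted p of 0.0317 that was lost without any of 5 single libraries (0.0619 to 0.0827). The median of the list is the same with Anxa10 at this bound. The LCAT calls of Anxa11 (-0.28, adjusted p = 0.0388) and Anxa13 (0.53, adjusted p = 0.0373) were each lost without any of 6 single libraries (0.06 to 0.108 for Anxa11, 0.0596 to 0.0996 for Anxa13).

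Of the other S100 genes, 8 of 10 listed were in the table. In OVX, 0 of 4 tested were higher, beside 19% of all genes, and 2 lower, beside 20.6% (median -0.71). S100a1, the calcium sensor known from muscle, read 369.8, 394, 417 and 439.6 in OVX libraries, against 946, 912, 858 and 821 in Sham libraries (log2 fold change -1.13, SE 0.080, limma adjusted p = 6.24e-05). The groups lay far apart. S100g, the vitamin D-dependent calbindin, was lower too (-2.65, adjusted p = 0.0364). It passed the minimum mean only through Sham, and its call was lost without any of 6 single libraries (0.0572 to 0.0873).

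With LCAT, 3 of 5 were higher, beside 20.2% of all genes, and 0 lower, beside 20.5% (median 0.90). S100a1 read 1553, 1114, 1123 and 838 in LCAT libraries, against 412, 389, 465 and 411 in Vec libraries, again separate (1.43, limma adjusted p = 0.00045). S100a13 (0.90, adjusted p = 0.0135) and S100b (3.36, adjusted p = 0.00454) also rose. S100b passed the minimum mean only through LCAT, with levels of 36.3 to 48.2 in LCAT libraries, against 0 to 9.87 in Vec libraries. The S100a1 change differed between the experiments by 2.56 (limma adjusted p = 1.72e-07). With the end libraries alone, S100a1 kept its call in LCAT (the highest adjusted p over all alternatives was 0.0145), and S100a13 (0.114), S100b (0.056) and the OVX call of S100a1 (0.215) did not pass.

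**Figure D4:**
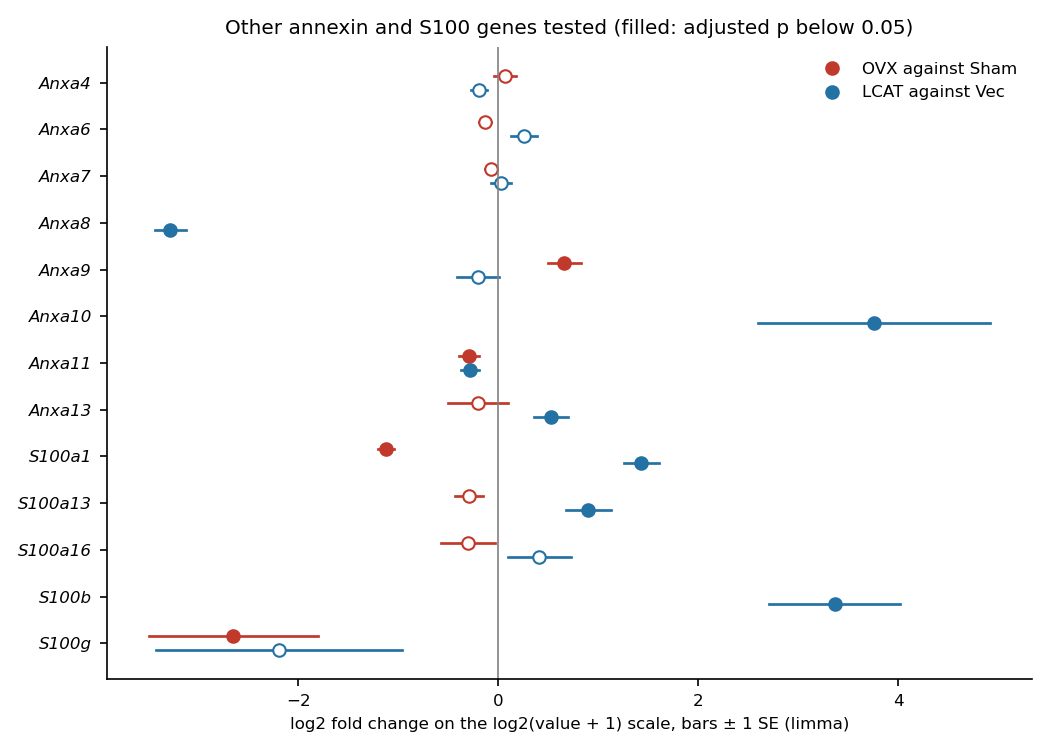
Log2 fold changes (x axis) of the other annexin and S100 genes tested, for OVX against Sham and LCAT against Vec, with 1 SE either side. S100a1 is at -1.13 for OVX and 1.43 for LCAT, and Anxa8 is at -3.28 for LCAT, while the Anxa10 point depends on the pseudocount.

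Marker counts of cell types are given beside the 39.6% of all genes called in OVX and the 40.7% called in LCAT. By direction these shares were 19% higher and 20.6% lower in OVX, and 20.2% and 20.5% in LCAT. Of 6 T and NK cell markers, only Cd4 was tested in OVX, through its OVX values alone, and rose (2.09, limma adjusted p = 0.00297). In LCAT 2 were tested and 0 called. Their sums were 27.5 to 59.4 in OVX, 4.21 to 32.9 in Sham, 43.3 to 145 in LCAT and 20.2 to 27.4 in Vec libraries. Mesothelial markers, led by Msln, Upk3b and Gpm6a, were higher in 6 of 6 tested in OVX, with summed levels of 357 to 441 in OVX libraries and 31.9 to 65.5 in Sham libraries. Of these 6, Msln, Upk1b, Wt1 and Lrrn4 passed the minimum mean only through OVX. Stellate cell and fibroblast markers, led by Col3a1, Col1a1 and Col1a2, rose in 9 and fell in 1 of 12, with sums of 10071 to 15831 in OVX libraries and 5873 to 6366 in Sham libraries. Cholangiocyte markers, led by Spp1, Prom1 and Sox9, rose in 4 and fell in 1 of 8 (2 to 5 and 0 to 1 with single libraries left out). Endothelial markers, led by Cdh5, Pecam1 and Stab2, fell in 3 of 6, namely Stab2 (-0.75, limma adjusted p = 0.000295), Lyve1 (-1.10, 0.00034) and Vwf (-1.21, 0.00925). Hepatocyte markers fell in 7 of 9 and rose in 0 (6 to 8 and 0 with single libraries left out). The falls called ran from -0.33 for Asgr1 to -2.18 for Tat on the authors' scaling. With library totals set equal the median of all genes moved up to 0.24, so the smaller falls depend on the scaling. The part of these cells in the Anxa1, Anxa2, S100a4 and S100a11 rises was not tested.

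In LCAT, mesothelial markers were higher in 5 of 6 (3 to 5 with single libraries left out), Wt1 among them through its LCAT values alone. Their sums were 337 to 449.6 in LCAT libraries and 146 to 234 in Vec libraries. Cholangiocyte markers were higher in 7 of 9, of which Cftr and Cldn7 passed the minimum mean only through LCAT, and only Spp1 fell. The sum, which Spp1 dominates, was 23634 to 31669 in LCAT libraries and 68623 to 86018 in Vec libraries. Stellate cell and fibroblast markers rose in 5 and fell in 2 of 12 (3 to 6 and 2 to 4 with single libraries left out), with sums of 10061 to 10961 in LCAT libraries and 9928 to 10796 in Vec libraries. The endothelial markers were split. Cdh5 (-1.20, limma adjusted p = 0.000447) and Pecam1 (-0.73, 0.00047) fell, and Stab2 (2.06, 0.00214) and Lyve1 (1.11, 0.0281) rose, the Lyve1 call being lost without any of 6 single libraries (0.0557 to 0.0783). Hepatocyte markers rose in 4 and fell in 0 of 9, and with library totals set equal 4 were higher and 3 lower. The part of these cells in the falls of Anxa2 and S100a6 was not tested.

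Neutrophils are the best known source of the calprotectin transcripts. In LCAT libraries, where S100a8 and S100a9 were higher, 6 of the 10 neutrophil markers in the table were at 0 throughout, namely the granule genes Ngp, Camp, Ltf, Elane and Mpo, and Retnlg. Ngp, Camp and Elane were also at 0 in all 4 Vec libraries and Retnlg in 3 of them. The other 4 markers had reads in LCAT libraries, with 34.2 to 100.4 for Csf3r, 6.18 to 13.2 for Mmp9, 6.18 to 9.90 for Cxcr2 and 0 to 3.09 for Mmp8. In Vec libraries they read 29.7 to 73.5 for Csf3r, 0 to 7.32 for Mmp9, 3.49 to 13.2 for Cxcr2 and 0 to 6.12 for Mmp8. The sum of the 10 markers in the table was 48.2 to 116 in LCAT libraries and 112 to 161 in Vec libraries. Much of the Vec sum was Mpo, at 66.4 to 75.6 in Vec libraries and 0 in all LCAT libraries. The sums therefore do not give the direction of the other markers. Mpo was the 1 of 2 tested that fell. Mpo passed the minimum mean only through Vec. Csf3r, the granulocyte colony-stimulating factor receptor and the most abundant of these markers, did not pass (0.66, limma adjusted p = 0.198), but was higher in LCAT and passed without LCAT library 1 (0.98, adjusted p = 0.0358). Ly6g was not found in the table. Monocyte and macrophage markers, led by Lyz2, Cd5l and Csf1r, were higher in 9 and lower in 1 of 13 (7 to 9 and 1 with single libraries left out), Timd4 and Marco through their LCAT values alone. Their sums were 3929 to 6522 in LCAT libraries and 1975 to 2186 in Vec libraries, and the part of neutrophils and macrophages in the S100a8 and S100a9 rise was not tested.

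In OVX, Csf3r (0.92, adjusted p = 0.004) and Cxcr2 (0.97, adjusted p = 0.0468) rose, and Retnlg (-1.64, adjusted p = 0.0156) and Ngp (-2.52, adjusted p = 0.0325) fell, of 6 neutrophil markers tested. The Cxcr2 call was lost without any of 6 single libraries (adjusted p from 0.0702 to 0.127) and that of Ngp, which passed the minimum mean only through Sham, without any of 4 (0.0589 to 0.0751). Ngp read 15.3, 9.45, 7.03 and 0 in OVX libraries, against 39.0, 36.1, 33.2 and 28.3 in Sham libraries. The sum of the markers was 154 to 285 in OVX libraries and 187 to 242 in Sham libraries, overlapping. Monocyte and macrophage markers rose in 3 and fell in 3 of 13. Those that rose were Ccr2 (2.87, limma adjusted p = 0.0124), Cx3cr1 (2.08, 0.00206) and Ly6c2 (0.93, 0.0132). Those that fell were Vsig4 (-0.64, 0.0432), Timd4 (-0.72, 0.0395) and Marco (-0.97, 0.00784). The higher calls numbered 3 whichever single library was left out. The lower calls numbered 1 to 4 with single libraries left out, 1 with library totals set equal and 0 when all 16 libraries shared 1 fit, and those of Vsig4 (adjusted p from 0.0534 to 0.0917) and Timd4 (0.0587 to 0.0954) were each lost without any of 6 single libraries. The marker sums were 5474 to 6642 in OVX libraries and 6589 to 6961 in Sham libraries.

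**Figure D5:**
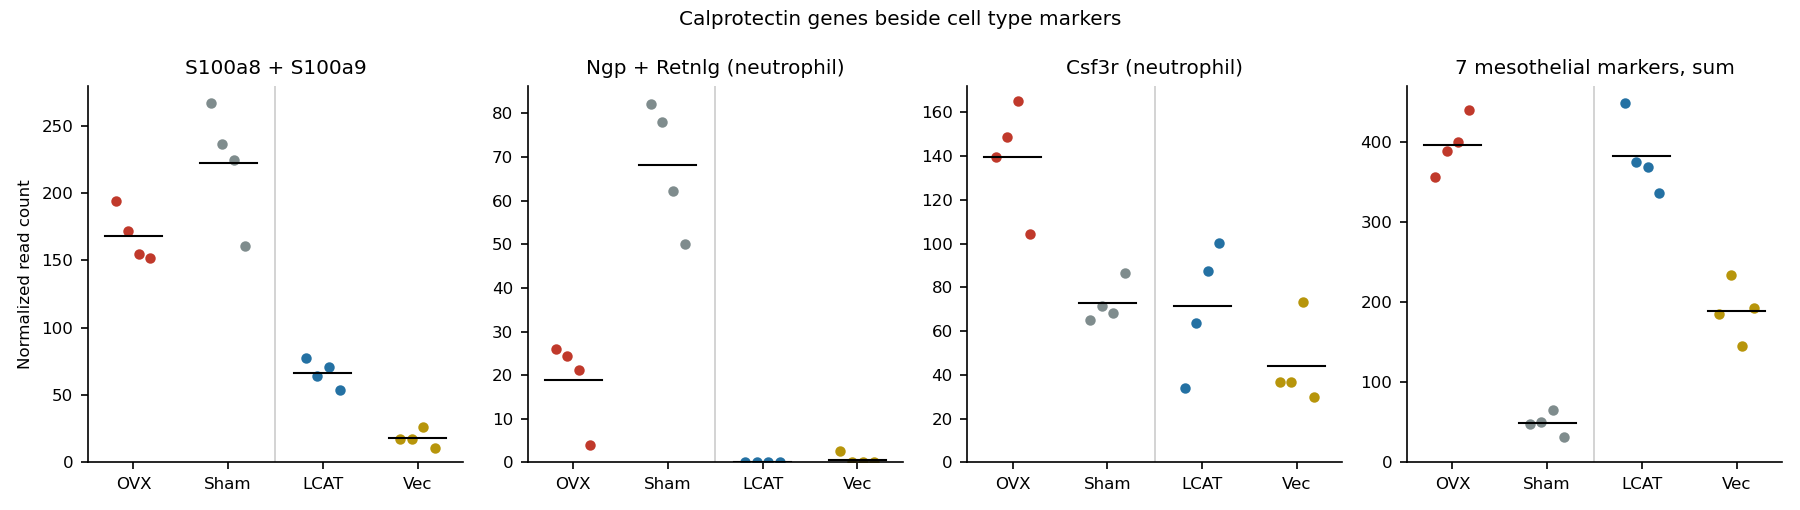
Summed normalised read counts by library for S100a8 and S100a9, for the neutrophil genes Ngp and Retnlg, for Csf3r, and for 7 mesothelial markers. Points are libraries and bars are group means. In LCAT, S100a8 and S100a9 lie above Vec, Ngp and Retnlg are at 0 in LCAT and at 0 in 3 of the 4 Vec libraries, and the mesothelial sum is 357 to 441 in OVX against 31.9 to 65.5 in Sham.

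The genes with the most similar profile were found by the root mean square difference of log2 values, centred within each experiment, over 16 libraries and 13156 genes. Anxa2 lay nearest to Lpl (0.13) and to the keratin gene Krt8 (0.13). S100a6 was nearest to Krt8 (0.17) and Klhl13 (0.19), and Anxa2 and S100a6 were each other's nearest among the 10 genes (0.23). S100a10 lay nearest to Pepd (0.11) and Myl6 (0.12), S100a11 to Thop1 (0.11) and Pla2g16 (0.11), Anxa1 to Acat2 (0.12) and Msrb2 (0.14), Anxa3 to Atp6v1b2 (0.081) and Cse1l (0.082), and Anxa5 to Top1mt (0.086) and Prkaca (0.11). S100a9 was nearest to Chchd7 (0.22) and Isoc2a (0.25), S100a4 to Atp2b2 (0.45) and H1fx (0.47), and S100a8 to Fam89b (0.71) and S100b (0.79). For comparison, the median distance to all genes was 0.58 for Anxa2, 1.46 for S100a8, 0.37 for Anxa3 and 0.41 for Anxa5. The root mean square of a gene's own centred values was 0.47 for Anxa2, 1.41 for S100a8, 0.12 for Anxa3 and 0.22 for Anxa5. The small distances of Anxa3 are thus those of a gene that varied little.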

How the data were processed

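RNA was extracted with TRIzol and 200 ng went into each polyA library, per the labels. FastQC, HISAT2, SAMtools and StringTie and the mm10 build are named in the submitters' processing notes, with no role or order. The authors deposited 1 table whose values behave as a signal: read counts divided by 1 size factor per library, which equals the median-of-ratios factor to within rounding. Whole reads were recovered in every library within 0.01 read. Of 16793 genes, 16479 matched 1 GENCODE M21 gene, and transcript lengths are of the annotated principal transcript. No column was left unused.

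The members and gene lists were chosen with earlier results of these data known. Genes that averaged 10 or more across the fitted libraries were tested with limma 3.58.1 in R 4.3.3 on log2(value + 1), with a trended robust prior, in the 8 libraries of each experiment, and with all 16 for the difference of the changes. Every adjusted p is Benjamini-Hochberg over all genes fitted, with a threshold of 0.05, and fold changes are on the log2(value + 1) scale, whose size for low genes depends on the pseudocount. edgeR 4.0.16 and DESeq2 1.42.0 on the recovered reads, other pseudocounts and filters, TMM, equal library totals, a replicate block, all 16 libraries in 1 fit, the end libraries alone and leaving out each library were alternatives. For the difference of the changes, edgeR, DESeq2 and the end libraries alone were not run. The procedure was tested on simulated data. Beyond the 10 genes, list genes past the threshold, up to 3 leading markers a cell type and the 2 genes nearest each member are named. Cell type markers beyond the leading 3 and S100a3, and partners that did not pass, were named after their values were seen. Promoters are RefSeq, GRCm38.p6.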

Additional observations from a re-analysis of the deposited data

How the results depend on the processing

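Pseudocounts of 0.5 and 5 changed no call of the 10 genes, nor did testing every gene without the minimum mean. With library totals set equal the median of all genes moved to 0.24 in OVX and -0.18 in LCAT, and to -0.46 for the difference. In OVX 4454 genes were then higher and 1208 lower, and in LCAT 1794 higher and 3969 lower. In OVX, Anxa5 (0.093) and S100a10 (0.24) then turned, and 5 members lay below in the difference, where Anxa5 (-0.36) and S100a10 (-0.064) turned. S100a10 in OVX, at -0.0031, also turned with TMM (0.0077), the end libraries (0.030), edgeR (0.021) and DESeq2 (0.014), and ran from -0.11 to 0.088 with single libraries left out. With the end libraries alone 0 genes were called higher and 0 lower in OVX, 0 members among them, and in LCAT 1059 genes were higher and 1154 lower, with 0 members higher and 1 lower. At a minimum mean of 50, 1 member was higher in LCAT and 1 above in the difference, since fewer genes were tested. On the recovered reads edgeR called 2486 genes higher and 2639 lower in OVX, and 2898 higher and 2484 lower in LCAT, with 1 member lower there. DESeq2 gave no adjusted p for 13 genes in OVX and 24 in LCAT. Same-numbered libraries did not deviate together, with correlations of -0.06 to 0.04 in OVX and -0.03 to 0.12 in LCAT. With a replicate block 1 member was lower in OVX (S100a8, -0.52, adjusted p = 0.0387) and 1 in LCAT, where S100a6 lost its call (adjusted p = 0.0551). DESeq2 also called 1 member lower in OVX (S100a8, adjusted p = 0.0375). Leaving out single libraries gave 0 to 2 members lower in OVX and 1 to 2 in LCAT. It also turned 5 other values, none of which had passed: Anxa3 in OVX (-0.022 to 0.079), Anxa5 (-0.23 to 0.049) and S100a11 (-0.48 to 0.063) in LCAT, and Anxa5 (-0.085 to 0.22) and Anxa1 (-0.18 to 0.071) in the difference. Except where given, the cause was not tested. Depth limits S100a8 in Vec most, with 13 reads in 4 libraries. All intervals cover only the spread between these libraries.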
